A study of Mus musculus and Homo sapiens with 83 samples.

Results

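The genes described here are 9 components of the epithelial junctional complex in the mouse embryonic stem cell (mESC) RNA of the series: the claudins Cldn3, Cldn4, Cldn6 and Cldn7, the claudin partner Epcam, the trafficking GTPase Rab25, the desmosomal protein Dsp, and the tight junction proteins Tjp1 and Ocln. They were taken from a named list by matching Ensembl gene ID to symbol with the version ignored, and all 9 were found among the 55401 mouse gene IDs, of which 55141 carried a symbol. RNA was measured by AMAR-seq, an automated chip method that opens the membrane of a single cell, draws the cytoplasmic RNA aside with electrodes for full-length cDNA, and leaves the nucleus for DNA assays. The 24 cells were of the E14 line, derived from strain 129/Ola: 6 day 0 cells grown with LIF on mouse embryonic fibroblast (MEF) feeders, and 7 day 3, 6 day 6 and 5 day 9 cells left to differentiate without direction on 0.1% gelatin, without LIF and without feeders. All groups share the line, the chip and the polyadenylated cytoplasmic fraction, and the labels name 1 cell per library and no separate cultures. Among the 83 samples of the series, 41 DNA samples and 18 RNA libraries of the K562 leukaemia line were not analysed here.

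Tight junctions seal the space between neighbouring epithelial cells near their apical side. Their strands are built from claudins and occludin, which cross the membrane several times, and are anchored to actin by scaffold proteins such as the Tjp1 product ZO-1. Desmosomes lie further down the lateral membrane and tie neighbouring cells together through keratin filaments, with desmoplakin (Dsp) as the link. The stem cells of the mouse embryo are themselves an epithelium-like population that expresses E-cadherin and Epcam, and the first tissues to form around them, trophectoderm and primitive endoderm, become polarised epithelia.

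In the summed cells, the 4 claudins stood higher on every differentiation day than at day 0, in steps that differed from gene to gene. The day 3 step depended on the day 0 cells used. Against only the 2 with under 10% mitochondrially encoded reads, Cldn7 was not higher, and Cldn4 and Cldn6 did not reach 2-fold. Summed over the cells of a day and scaled to 1000000 gene reads (CPM), Cldn6 stood at 3.32, 10.4, 62.3 and 133.3 CPM on days 0, 3, 6 and 9. Epcam and Rab25 were highest at day 6, and Rab25 was back at 0.356 CPM by day 9. Dsp had 18 reads in all at day 6 and stood at 38.8 CPM at day 9. Ocln followed the same order of days as the claudins, and Tjp1 varied more between the cells of a day than between the days.

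Values are levels in CPM of gene reads unless a difference is named. CPM is not corrected for transcript length, so levels are set against each other only within a gene. Each day counts as 1 sample, because the labels tie no cells to separate cultures: no test was made between days, and intervals (95%, exact Poisson for a level, exact conditional binomial for a ratio) cover counting error only. The reads carry no molecular identifiers, so they are not independent molecules. A cell with 0 reads had a floor of 3 reads, which was 0.183 to 0.767 CPM at gene read totals of 3913595 to 16367029 per cell.

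Several libraries stood apart. Day 0 cells 1 to 4 had 24.2%, 11.8%, 17.8% and 15.5% mitochondrially encoded reads, against 3.29% and 4.09% in cells 5 and 6, and day 9 cell 4 had 18.6%. A single gene, CT010467.1, took 73.1% of the gene reads of day 9 cell 1, which was also the shallowest library. The other genes of that cell are thus compressed on the CPM scale. The share of CT010467.1 was high elsewhere too, at 75.2% in day 3 cell 3, 66.4% in day 3 cell 4 and 58.1% in day 0 cell 6. Its median over the cells was 43.6%, 53.4%, 30.3% and 27.0% on days 0, 3, 6 and 9. Plain CPM levels are thus compressed to an extent that differs between the days. Of 8 stem cell markers, Pou5f1, Dppa5a, Tdgf1 and Utf1 had reads in all 24 cells and Sox2 was listed at 0 in all 24, for which the cause was not tested. Feeder fibroblast markers summed to 340.8 CPM in day 0 cell 6, with 9 of 10 listed markers detected and Lum at 0, against 1.72 to 115.0 CPM in the other day 0 cells. Doublets were not called, and the day sums hold every cell.

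The promoters of 6 of the genes are shown first because they differ in the short motifs that epithelial regulators are known to read. Each line gives the 250 bases before the start site, 5′ to 3′ on the gene's strand, from RefSeq on GRCm38.p6 (mm10), with matches in capitals. The motifs searched on both strands were CAGGTG, an E-box that Snail and Zeb repressors bind (CACCTG on the other strand), ACCGGTT, the core of the Grainyhead-like site, and GGGCGG, the SP and KLF box (CCGCCC on the other strand). No match overlapped another.
Cldn4, chr5:134946935-134947184, minus strand: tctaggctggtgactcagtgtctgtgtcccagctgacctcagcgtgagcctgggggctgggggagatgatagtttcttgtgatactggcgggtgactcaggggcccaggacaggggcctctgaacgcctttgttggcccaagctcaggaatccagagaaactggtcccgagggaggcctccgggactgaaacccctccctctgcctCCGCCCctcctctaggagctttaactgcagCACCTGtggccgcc
Cldn6, chr17:23679115-23679364, plus strand: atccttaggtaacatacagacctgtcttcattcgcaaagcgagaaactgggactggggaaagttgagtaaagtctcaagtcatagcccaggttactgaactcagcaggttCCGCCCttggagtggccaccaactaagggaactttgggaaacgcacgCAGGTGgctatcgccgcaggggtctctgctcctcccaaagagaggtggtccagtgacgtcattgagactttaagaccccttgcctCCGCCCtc
Cldn7 second start site, chr11:69965171-69965420, plus strand: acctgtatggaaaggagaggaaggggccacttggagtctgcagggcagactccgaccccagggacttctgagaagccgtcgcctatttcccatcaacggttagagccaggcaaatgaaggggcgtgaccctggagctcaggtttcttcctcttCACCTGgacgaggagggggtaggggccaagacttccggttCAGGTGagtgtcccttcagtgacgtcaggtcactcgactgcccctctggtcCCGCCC
Epcam, chr17:87635729-87635978, plus strand: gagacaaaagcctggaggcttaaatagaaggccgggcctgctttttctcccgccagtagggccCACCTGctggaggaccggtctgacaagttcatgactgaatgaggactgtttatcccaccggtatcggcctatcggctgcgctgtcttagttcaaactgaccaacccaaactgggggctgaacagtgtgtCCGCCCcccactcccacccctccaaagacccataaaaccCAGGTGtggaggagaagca
Rab25, chr3:88548280-88548529, minus strand: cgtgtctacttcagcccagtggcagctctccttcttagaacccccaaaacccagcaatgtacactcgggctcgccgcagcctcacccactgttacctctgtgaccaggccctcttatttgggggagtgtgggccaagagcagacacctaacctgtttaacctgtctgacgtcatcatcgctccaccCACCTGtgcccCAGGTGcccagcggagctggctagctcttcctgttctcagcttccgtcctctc
Dsp, chr13:38151044-38151293, plus strand: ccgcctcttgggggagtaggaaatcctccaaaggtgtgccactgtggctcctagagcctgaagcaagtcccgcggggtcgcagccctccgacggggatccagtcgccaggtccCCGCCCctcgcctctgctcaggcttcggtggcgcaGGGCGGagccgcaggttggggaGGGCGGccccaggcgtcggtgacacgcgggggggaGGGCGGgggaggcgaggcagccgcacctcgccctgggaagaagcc

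The E-box was present before the first listed start site of 4 of the 9 genes, Cldn4, Cldn6, Epcam and Rab25, and in 17.1% of the 27025 promoters of the same length in the table. Cldn7 and Ocln held it before their second listed start site only. Rab25 carried a match on each strand, 64 and 53 bases before the start, and Cldn7 likewise 97 and 57 bases before its second start. Dsp carried no E-box and 4 SP and KLF boxes in a promoter of 72.4% G and C, against a median of 52% over all promoters. Tjp1 and Cldn6 carried 2 such boxes, and Cldn3, Cldn4, Epcam and Ocln 1 each at the first start. Rab25 and the first start of Cldn7 carried none. Over all promoters, 32.9% held at least 1. The Grainyhead-like core was found in 0 of the 9 first promoters, against 0.799% of all. These are matches of letters in a short window and say nothing of binding.

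Cldn4 encodes a strand-forming claudin that tightens the paracellular path. At day 0 the lowest, median and highest of the 6 cells were 0, 5.67 and 16.2 CPM, and cells 1 and 4 had no read. The 7 day 3 cells ran from 8.72 through 19.5 to 38.0 CPM, and the 6 day 6 cells from 23.0 through 26.3 to 41.9 CPM. The 5 day 9 cells stood at 22.7, 69.2, 55.0, 69.5 and 60.5 CPM. Every day 6 and day 9 cell thus stood above every day 0 cell, and the low day 9 value was cell 1, the day 9 cell with the highest CT010467.1 share. With that gene kept out of the totals, cell 1 stood at 84.5 CPM and the 5 day 9 cells stood apart from the day 6 cells, the lowest at 66.7 CPM against a highest of 51.9 CPM. On those totals the day 6 cells overlapped the day 0 cells, the lowest at 36.1 CPM against a highest of 38.7 CPM. Cldn4 lies on chromosome 5, at 134945123 to 134946934 on mm10.

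Cldn3, a sealing claudin closely related to Cldn4, lies 39280 bases from it on the same chromosome, at 134986214 to 134987476. Only day 0 cells 4 and 6 had reads, at 3.62 and 1.93 CPM, and the day's sum gave 0.835 CPM (0.591 to 1.15). On day 3 the range was 0 to 21.6 CPM around a median of 6.78 CPM, with cell 7 alone at 0. The day 6 cells spread from 2.15 through 16.3 to 60.8 CPM, whereas the day 9 cells stood at 10.7, 28.8, 28.6, 24.3 and 23.8 CPM. The summed level was 24.5 CPM (23.4 to 25.7) at day 6 and 24.7 CPM (23.1 to 26.4) at day 9, so the counting intervals of the 2 sums overlapped while the cells of day 9 were closer together. The gene overlaps Wbscr25 by 44 bases in RefSeq, and since no strand setting is given for the counts, reads in that stretch cannot be told apart.

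Cldn6, a claudin known mainly from embryonic epithelia, lies on chromosome 17 at 23679348 to 23682446, only 138 bases from Cldn9. At day 0 cells 1 and 3 had no read, cell 5 stood at 15.0 CPM with 61.6% of the day's reads, and the median was 1.11 CPM. Cells of day 3 ran from 0.969 through 6.70 to 22.7 CPM and the day 6 cells from 20.8 through 60.5 to 129.7 CPM. At day 9 the cells stood at 9.96, 96.4, 80.8, 274.4 and 165.6 CPM. All day 6 cells lay above all day 0 cells, and 4 of the 5 day 9 cells did so, cell 1 being the exception on plain totals. With CT010467.1 out of the totals, that cell stood at 37.0 CPM and all 5 lay above the highest day 0 cell at 26.9 CPM.

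Cldn7, the claudin that binds Epcam directly on the basolateral membrane, lies on chromosome 11 at 69964779 to 69967886. Day 0 cell 6 held 89.1% of the day's reads at 16.7 CPM, and the other 5 cells ran from 0 to 1.59 CPM. Those of day 3 ran from 0 in cell 5 through 5.64 to 27.0 CPM. The day 6 cells ran from 31.8 through 51.2 to 116.5 CPM, and the day 9 cells stood at 12.0, 147.3, 38.8, 114.4 and 85.9 CPM. This was the only gene of the 9 for which cells of neighbouring days in its order of levels did not overlap on plain totals, day 6 lying above day 3. The day 0 cell with the high value was also the one in which the feeder fibroblast markers summed to 340.8 CPM, and the part of those markers in its Cldn7 was not tested.

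**Figure D1:**
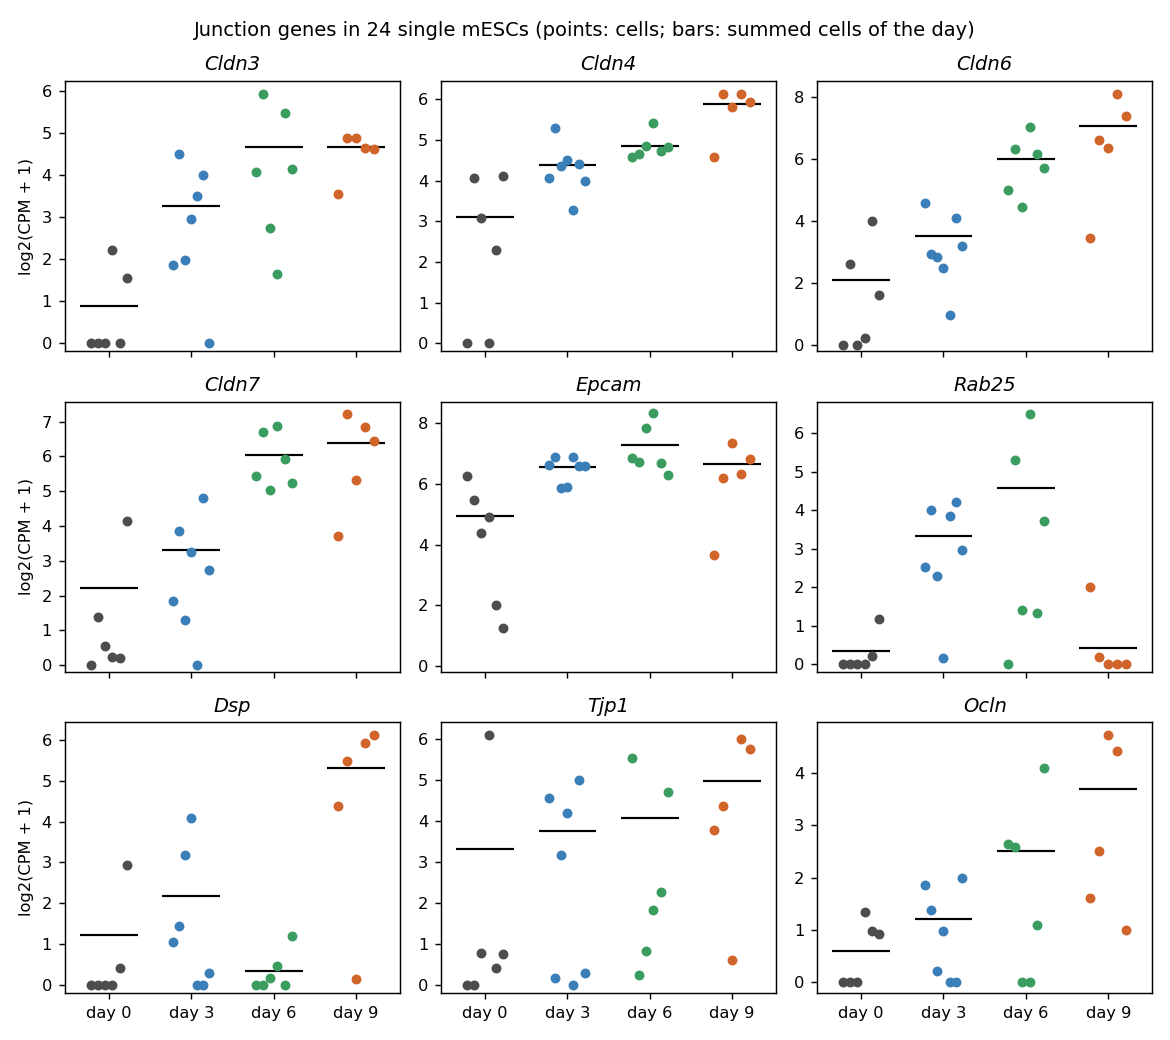
Level of each of the 9 genes in each of the 24 cells, as log2(CPM + 1) on the vertical axis, by day. Points are cells and bars are the level of the day's summed cells. The claudins step upward with the day, Rab25 has all day 9 cells at or under 3.07 CPM, and Dsp has all day 6 cells at or under 1.28 CPM.

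Epcam, a cell adhesion glycoprotein that holds claudins at the membrane and is abundant in undifferentiated stem cells, lies on chromosome 17 at 87635979 to 87651127. It was the only one of the 9 with reads in all 24 cells. At day 0 the cells stood at 1.36 CPM (lowest), 24.6 CPM (median) and 76.2 CPM (highest), the lowest being cells 6 and 5, the pair with few mitochondrially encoded reads. The day 3 cells ran from 57.6 through 96.2 to 116.8 CPM and the day 6 cells from 78.1 through 109.8 to 324.9 CPM. The day 9 cells stood at 11.8, 72.0, 162.4, 79.0 and 110.9 CPM. The day 6 cells lay just above the day 0 cells, by 78.1 against 76.2 CPM. In day 0 cell 1, Epcam was the only gene of the 9 with a read, and in cell 6 all 9 had reads while Epcam was at its lowest.

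Rab25 encodes an epithelial Rab GTPase of the Rab11 subfamily that recycles membrane cargo toward the apical surface, and lies on chromosome 3 at 88542029 to 88548279. At day 0 only cells 5 and 6 had reads, 12 in all, giving 0.264 CPM (0.136 to 0.461). All 7 day 3 cells had a read and ran from 0.121 through 6.91 to 17.7 CPM. The day 6 cells were far apart, at 0, 38.6, 1.69, 89.3, 1.51 and 12.2 CPM in cells 1 to 6, and cell 4 held 61.3% of the day's reads. At day 9 the cells stood at 3.07, 0.141, 0, 0 and 0 CPM, with 12 of the 13 reads in cell 1. The 3 cells at 0 had floors of 0.311 to 0.442 CPM, under the day 3 median of 6.91 CPM.

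Dsp encodes desmoplakin, which joins the desmosome plaque to keratin filaments, and lies on chromosome 13 at 38151294 to 38198577. Day 0 cell 6 stood at 6.70 CPM with 96.7% of the day's reads, cell 5 at 0.322 CPM, and the other 4 cells at 0. The day 3 cells ran from 0 through 1.08 to 16.0 CPM. At day 6 there were 18 reads in all, cells 1, 2 and 5 had none, and the highest cell stood at 1.28 CPM. The day 9 cells stood at 19.9, 43.5, 0.104, 60.0 and 68.6 CPM. Thus 4 of the 5 day 9 cells lay above every cell of the earlier days and cell 3 had a single read. That cell was also the lowest of its day for Tjp1, at 0.518 CPM, and had the highest Epcam and Ocln of its day, at 162.4 and 25.4 CPM.

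Tjp1 encodes ZO-1, the scaffold that ties claudins to actin, and lies on chromosome 7 at 65296165 to 65527850. At day 0 cell 4 stood at 68.1 CPM with 96.6% of the day's reads, and the other 5 cells ran from 0 to 0.711 CPM. The day 3 cells ran from 0 through 8.02 to 31.2 CPM, the day 6 cells from 0.172 through 3.15 to 45.9 CPM, and the day 9 cells stood at 12.8, 19.6, 0.518, 63.9 and 53.7 CPM. Each day held cells under 1 CPM and cells above 30 CPM, so the days overlapped throughout. Without day 0 cell 4 the day 0 level was 0.352 CPM.

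Ocln encodes occludin, the other membrane-spanning protein of the strands, and lies on chromosome 13 at 100496504 to 100552718. It had 23 reads at day 0, in cells 4, 5 and 6, and 0.505 CPM (0.320 to 0.758). The day 3 cells ran from 0 through 0.968 to 2.99 CPM and the day 6 cells from 0 through 3.06 to 16.1 CPM. The day 9 cells stood at 2.04, 4.65, 25.4, 20.2 and 0.995 CPM. The days overlapped, and day 9 cells 3 and 4 were the highest of the 24. RefSeq places a small RNA gene of 144 bases inside Ocln, and its reads cannot be told apart.

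**Figure D2:**
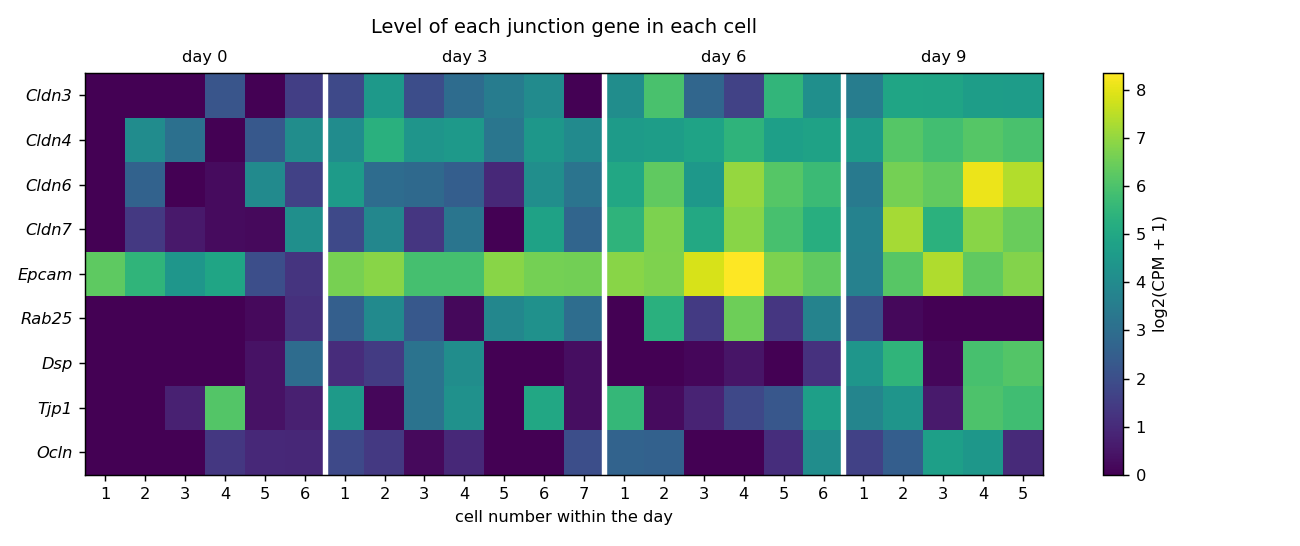
Level of each gene (rows) in each cell (columns, numbered within the day), as log2(CPM + 1) by colour. Day 0 cells 1 to 4 are dark for most genes apart from Epcam, the claudin rows brighten to the right, and the Rab25 row is dark at day 9 where the Dsp row is bright in 4 of 5 cells.

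The number of the 9 genes with at least 1 CPM in a cell ran from 1 to 7 at day 0 with a median of 3.5 and from 4 to 9 at day 3 with a median of 7. Both later days ran from 6 to 9. The 3 cells that held all 9 at 1 CPM or more were day 3 cell 1, day 6 cell 6 and day 9 cell 1. The summed level of the 4 claudins was 0 to 36.9 CPM over the day 0 cells, and it was lowest in cell 1, which had no claudin read. No day 6 cell was under 86.1 CPM, and the day 9 cells stood at 55.4, 341.6, 203.2, 482.7 and 335.8 CPM.

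To compare days, counts were summed over a day's cells and the log2 ratio of CPM + 1 was taken relative to the median gene, over genes with at least 20 reads in at least 2 libraries of the pair of days. Against day 0 the median gene itself had a log2 ratio of 0.09, 0.49 and 0.71 on days 3, 6 and 9, and that shift is subtracted. A gene is called higher or lower where this relative log2 ratio is at least 1 in size, a 2-fold difference. The 3 comparisons with day 0 share the same 6 cells, so they are not independent of each other.

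At day 3, the earliest point after LIF and feeders were withdrawn, 6 of the 9 genes were at least 2-fold higher than at day 0 and 0 were 2-fold lower. Of all 14758 genes measured, 20.7% were higher and 23.5% lower by the same rule. Rab25 had the highest ratio, 34.3 times its day 0 CPM (19.5 to 66.8), with a relative log2 ratio of 2.90. Cldn3 followed at 10.3 times (7.41 to 14.7; relative log2 2.29), then Epcam at 3.10 times (2.92 to 3.29; relative log2 1.505). Cldn6, Cldn4 and Cldn7 had relative log2 ratios of 1.31, 1.18 and 1.02. Dsp, Ocln and Tjp1 stayed within 2-fold, at 0.85, 0.52 and 0.35. The median of the 9 genes was 1.18. For 0 of the 9 did all day 3 cells lie above all day 0 cells, as they did for 1.8% of all genes, and for 0 did they all lie below, beside 0.413%. Epcam stood apart and higher with totals without CT010467.1 (lowest day 3 cell 152.9 CPM, highest day 0 cell 127.8 CPM), without day 0 cell 1, or against the 2 day 0 cells with under 10% mitochondrially encoded reads. Rab25 stood apart without day 3 cell 4. Single cells carried much of this comparison. Set against the 2 day 0 cells with under 10% mitochondrially encoded reads, 4 of the 9 were higher: Cldn7 turned to -0.43, Cldn6 stood at 0.13 and Cldn4 at 0.48, while Epcam stood at 4.62 and Tjp1 at 2.83. Without day 0 cell 4, Tjp1 stood at 2.99, and without day 0 cell 6, Cldn7 stood at 2.53 and Dsp at 1.88. Cldn7 was under the limit, down to 0.50, without day 3 cell 2 or 6 or any one of day 0 cells 1 to 5. Cldn4 was under it, down to 0.76, without day 3 cell 2 or day 0 cell 1, 4 or 5, and Cldn6, down to 0.92, without day 3 cell 1 or day 0 cell 4. With DESeq2 size factors Cldn4 and Cldn7 were under the limit too. Dsp passed the limit without day 3 cell 1, 5, 6 or 7, at up to 1.15, and stood at 0.03 without day 3 cell 4. Cldn6 stood at 1.98 without day 0 cell 5, and Epcam at 2.205 without day 0 cell 1.

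At day 6, 7 of the 9 genes were at least 2-fold higher than at day 0, beside 25.4% of the 15117 genes measured, and 1, Dsp, was lower, beside 23.1%. Rab25 (relative log2 3.75), Cldn6 (3.39), Cldn7 (3.34) and Cldn3 (3.31) were 86.6, 18.8, 17.9 and 29.4 times their day 0 CPM. Epcam (1.83), Ocln (1.42) and Cldn4 (1.24) were higher too, and Tjp1 stood at 0.27. Dsp stood at -1.38, with 0.264 CPM (0.156 to 0.417) against 1.34 CPM (1.02 to 1.72), and that rested on day 0 cell 6: without it Dsp stood at -0.32. For Cldn4, Cldn6, Cldn7 and Epcam, all 6 day 6 cells lay above all 6 day 0 cells, as they did for 1.26% of all genes, and 0 of the 9 had all cells below, beside 0.192%. Of these 4, Cldn6 and Cldn7 stayed apart under TMM factors, DESeq2 size factors and totals without CT010467.1, and Cldn4 and Epcam overlapped under each of those. Cldn3 stood apart too without day 6 cell 4 or day 0 cell 4, and Rab25 without day 6 cell 1. Against the 2 day 0 cells with few mitochondrially encoded reads, Epcam stood at 4.96, Tjp1 at 2.76, Cldn4 at 0.55 and Ocln at 0.86, and 6 of the 9 were higher. Without day 0 cell 4, Tjp1 stood at 2.92 and Cldn4 at 0.84, and without day 6 cell 6 Ocln stood at 0.82. Cldn4 was under the limit with DESeq2 size factors too. Cldn7 stood at 4.88 without day 0 cell 6, Cldn6 at 4.08 and Epcam at 2.51 without day 0 cells 5 and 1, and Rab25 at 2.76 without day 6 cell 4.

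At day 9, 7 of the 9 genes were at least 2-fold higher than at day 0, beside 25.2% of the 15512 genes measured, and 0 were lower, beside 23.8%. The relative log2 ratio was 4.25 for Cldn6, 3.47 for Cldn7, 3.38 for Dsp, 3.10 for Cldn3, 2.39 for Ocln, 2.07 for Cldn4 and 1.006 for Epcam. In CPM, Cldn6 was 40.2 times (34.2 to 47.6) and Dsp 28.9 times (22.4 to 38.0) its day 0 level. Tjp1 stood at 0.95 and Rab25 at -0.60, with 13 reads against 12 and a ratio of 1.35 (0.568 to 3.24). All day 9 cells lay above all day 0 cells for Cldn3 and Cldn4, beside 2.11% of all genes, and below them for 0 of the 9, beside 0.193%. With DESeq2 size factors only Cldn3 stayed apart, and with totals without CT010467.1 Cldn6 and Cldn7 did so too. These 2 also stood apart without day 9 cell 1, Cldn6 without day 0 cell 5, Cldn7 without day 0 cell 6, Dsp without day 9 cell 3, and Ocln without day 9 cell 5 or day 0 cell 4. The Epcam call was at the edge: its relative log2 ratio was below 1 without day 9 cell 3 or 5 or day 0 cell 3, 4, 5 or 6, down to 0.62, and 1.68 without day 0 cell 1. It was also below 1 in 8 of 12 other settings, down to 0.57. Among these were TMM factors, DESeq2 size factors, and totals without CT010467.1 or without mitochondrially encoded genes. Tjp1 passed the limit without day 9 cell 1, 2 or 3 and stood at 3.62 without day 0 cell 4. Without day 0 cell 6, Cldn7 stood at 5.00 and Dsp at 4.43, without day 0 cell 5 Cldn6 stood at 4.95, and without day 9 cell 3 Ocln stood at 1.73. Against the 2 day 0 cells with few mitochondrially encoded reads, Epcam stood at 4.17, Tjp1 at 3.48 and Rab25 at -1.29.

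**Figure D3:**
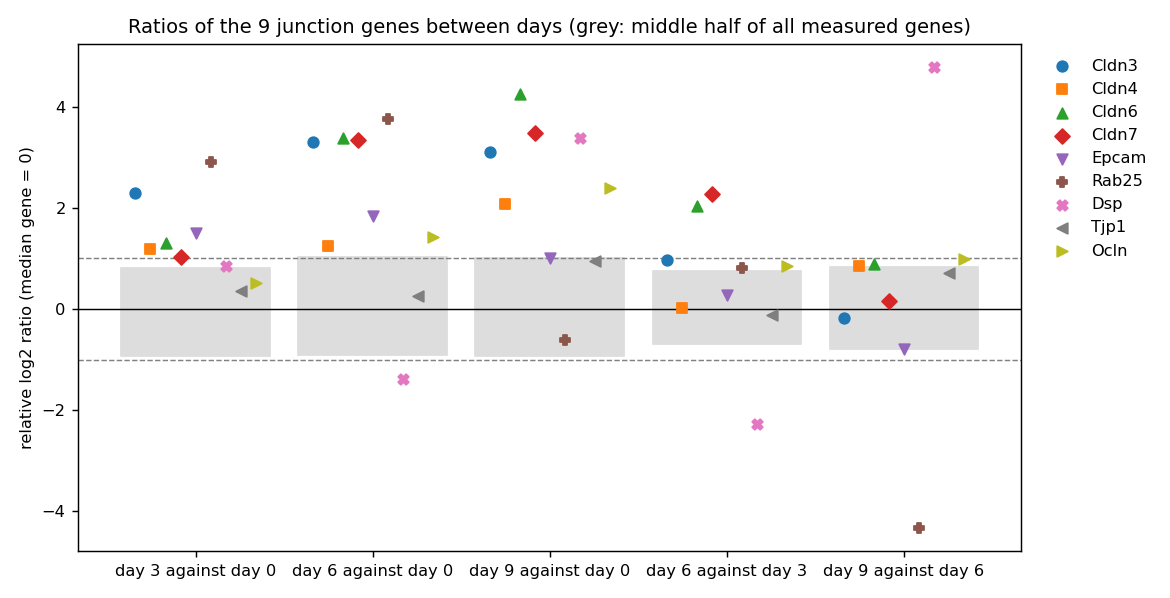
Relative log2 ratio (vertical axis, the median gene at 0) of each of the 9 genes in the 5 comparisons of days. Grey boxes span the quartiles of all measured genes and dashed lines mark a 2-fold difference. Most genes lie above the boxes in the comparisons with day 0, and between day 6 and day 9 Dsp at 4.78 and Rab25 at -4.33 lie far outside the box in opposite directions.

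Between day 3 and day 6, Cldn7 and Cldn6 were at least 2-fold higher, 2 of the 9, beside 19.1% of the 15261 genes measured. Cldn7 was 7.20 times (6.58 to 7.89; relative log2 2.28) and Cldn6 5.99 times (5.50 to 6.52; relative log2 2.03) its day 3 CPM. Dsp alone was lower, beside 16% of all genes, at a relative log2 ratio of -2.28, 0.264 CPM against 3.50 CPM. Cldn7 was the 1 gene whose day 6 cells lay above all day 3 cells, beside 0.754% of all genes, and 0 of the 9 had them all below, beside 0.315%. With DESeq2 size factors, or without day 6 cell 3 or day 3 cell 1, Cldn6 stood apart as well, and Cldn4 did so without day 3 cell 2. Cldn3 at 0.97, Ocln at 0.86 and Rab25 at 0.80 lay under the limit, with Epcam at 0.28, Cldn4 at 0.02 and Tjp1 at -0.13. Leaving out single cells moved the count of higher genes between 2 and 4, with 4 when day 6 cell 1, 3, 4 or 5 was left out. The added genes were Cldn3 (up to 1.32, without day 6 cell 1, 3, 4 or 6 or day 3 cell 2 or 6), Ocln (up to 1.15, without day 6 cell 3, 4 or 5 or day 3 cell 1 or 7) and Rab25 (up to 1.21, without day 6 cell 1 or 5). Without day 6 cell 4, Rab25 stood at -0.17, and without day 3 cell 4, Dsp stood at -1.44. Without day 6 cell 1, which held 69.3% of the day's Tjp1 reads, Tjp1 stood at -1.29.

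Between day 6 and day 9, Dsp was higher and Rab25 lower, while the 4 claudins stayed within 2-fold of the median gene. Cldn6 and Cldn4 were 2.14 and 2.10 times their day 6 CPM and lay above 76.4% and 75.4% of all genes in relative log2 ratio, whereas Cldn3 and Cldn7 were 1.008 and 1.28 times theirs. Dsp was the 1 gene of the 9 at least 2-fold higher, beside 21.2% of the 16070 genes measured, at 147.1 times its day 6 CPM (92.8 to 249.0; relative log2 4.78). Rab25 was the 1 gene lower, beside 20% of all genes, at 0.0156 times (0.00829 to 0.0268; relative log2 -4.33). Neither was free of overlap between cells. Day 9 cell 3 had 1 Dsp read. For Rab25, day 9 cell 1 at 3.07 CPM lay above day 6 cells 1, 3 and 5, at 0, 1.69 and 1.51 CPM. With totals without CT010467.1, that day 9 cell stood at 11.4 CPM, above the same day 6 cells. In 0 of the 9 did the cells of the 2 days lie apart with day 9 higher, beside 0.958% of all genes, or with day 9 lower, beside 0.224%. Cldn4 stood apart and higher with TMM factors, with totals without CT010467.1 or without day 9 cell 1, and Dsp did so without day 9 cell 3. Ocln at 0.99, Cldn6 at 0.89, Cldn4 at 0.85 and Tjp1 at 0.71 were under the limit, Cldn7 stood at 0.15, Cldn3 at -0.18 and Epcam at -0.80. The count of higher genes was 1 to 3 over the fits without 1 cell, reaching 3 without day 9 cell 1, 2 or 3 and 2 without day 9 cell 5 or day 6 cell 1, 4 or 6. The added genes were Cldn6 (up to 1.18, without day 9 cell 1, 2 or 3 or day 6 cell 4), Ocln (up to 1.57, without day 9 cell 1, 2 or 5 or day 6 cell 6) and Tjp1 (up to 1.86, without day 9 cell 3 or day 6 cell 1). Without day 9 cell 3, Epcam stood at -1.06 and was called lower too. Dsp stayed between 4.40 and 5.32 and Rab25 between -4.75 and -3.37 over all of these fits, the weakest Rab25 value being that without day 6 cell 4.

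Genes of other lists were read in the same way, and their levels likewise came in many cases mainly from 1 cell. That cell is named in only part of the cases where it changes the call or the order of days. A gene given without a named cell can thus still rest on 1 cell.

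The other claudins did not share a single order of days. Of 19 listed, 6 were measured at day 3 against day 0 with 3 higher and 1 lower, 8 at day 6 with 5 higher and 1 lower, and 8 at day 9 with 2 higher and 2 lower. Over all genes the shares higher and lower were 20.7% and 23.5% at day 3, 25.4% and 23.1% at day 6, and 25.2% and 23.8% at day 9. The 4 with the most reads were Cldnd1, Cldn14, Cldn9 and Cldn12. Cldn9, the neighbour of Cldn6, had 0 reads at day 0, then 4.67, 9.30 and 0.767 CPM on the later days, and was thus low at day 9 where Cldn6 was at its highest. All of its day 9 reads lay in cell 5, and without day 3 cell 6 its day 3 level was 1.515 CPM. Cldn14 followed 0.0439, 0.851, 9.22 and 12.0 CPM, with 92.2%, 99.8% and 94.7% of the reads of days 3, 6 and 9 in 1 cell each. Without those cells its levels on the 3 later days were 0.0759, 0.01925 and 0.857 CPM. Cldn12 followed 0.0659, 1.95, 6.06 and 2.25 CPM, and without day 6 cell 3 its day 6 level was 0.505 CPM, under days 3 and 9. Cldnd1, a claudin domain protein, stood at 0.395, 8.26, 12.6 and 12.2 CPM, and without day 6 cell 4 its day 6 level was 8.21 CPM, under days 3 and 9.

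The scaffold and polarity genes of the tight junction went both ways, as all genes did. Of 18 listed, 18 were measured at day 6 against day 0, with 5 higher and 6 lower and a median relative log2 ratio of 0.07. At day 9 there were 6 higher and 3 lower. The shares of all genes were 25.4% higher and 23.1% lower at day 6, and 25.2% and 23.8% at day 9. F11r, the junctional adhesion molecule JAM-A, stood at 78.1, 27.0, 194.8 and 137.6 CPM over the 4 days, and without day 0 cell 1 its day 0 level was 30.8 CPM and its day 6 ratio passed the limit. Jam2, a related adhesion molecule, stood at 109.8, 84.1, 52.4 and 27.7 CPM. Without day 0 cell 1 its day 0 level was 61.5 CPM, under day 3, and without day 6 cell 1 its day 6 level was 19.6 CPM, under day 9. Magi1, a scaffold of the junction, stood at 66.4, 17.9, 23.9 and 114.1 CPM, and Prkci, the atypical protein kinase C of the apical polarity complex, at 92.5, 54.7, 97.8 and 94.4 CPM. Without day 3 cell 6 the day 3 level of Prkci was 20.5 CPM, and without day 6 cell 4 its day 6 level was 84.8 CPM, under days 0 and 9.

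Desmosome and adherens junction genes were also mixed. Of 16 listed, 13 were measured at day 6 against day 0 with 2 higher and 3 lower, beside 25.4% and 23.1% of all genes. At day 9 there were 14 measured with 6 higher and 5 lower, beside 25.2% and 23.8%. Cdh1, which encodes E-cadherin, stood at 105.5, 29.97, 26.2 and 81.8 CPM over the days, lower by the 2-fold rule on each day against day 0. Day 0 cell 1 held 62.9% of the day 0 reads, and without it the day 0 level was 48.4 CPM and only day 6 stayed lower, at relative log2 ratios of -0.70, -1.30 and 0.08 on days 3, 6 and 9. Jup, the plakoglobin of both junction types, stood at 15.7, 26.3, 66.9 and 65.6 CPM. Without day 6 cell 2 the day 6 level of Jup was 52.2 CPM, under day 9. Afdn, which encodes afadin, stood at 41.6, 26.5, 63.2 and 82.5 CPM. Its day 6 level was 27.8 CPM without day 6 cell 1, and its day 9 level 56.3 CPM without day 9 cell 4. Ctnna1, alpha-catenin, stood at 121.1, 75.2, 107.5 and 182.9 CPM. Without day 0 cell 4 the day 0 level of Ctnna1 was 75.25 CPM, under day 6. Between day 6 and day 9, where Dsp differed most, 6 of 14 measured genes of this list were higher and 2 lower, with a median of 0.38. Over all genes the shares were 21.2% and 20%. Over the fits without 1 cell the counts of this list ran from 4 to 7 and from 1 to 3.

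Of 10 measured genes that process Epcam and Cldn7 or move membrane cargo, 1 was higher and 2 lower at day 3 against day 0 (median 0.17), beside 20.7% and 23.5% of all genes. At day 6 there were 4 higher and 3 lower (median 0.45), beside 25.4% and 23.1%, and at day 9 there were 5 higher and 1 lower (median 1.37), beside 25.2% and 23.8%. Spint2, an inhibitor of the membrane proteases that cleave Epcam, stood at 69.5, 116.9, 191.1 and 198.9 CPM. Cd9, a tetraspanin, was at 859.5 CPM at day 9 against 98.3 CPM at day 6. The Rab25 relatives did not share its low day 9 level: Rab11a stood at 206.4, 124.8, 247.5 and 353.0 CPM and Rab11b at 9.18, 24.5, 29.98 and 29.2 CPM.

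Epithelial transcription and splicing regulators had 3 of 9 measured members higher and 3 lower at day 6 against day 0, beside 25.4% and 23.1% of all genes. At day 9 there were 3 of 10 higher and 2 lower, beside 25.2% and 23.8%. Grhl2, a Grainyhead-like activator known to bind junction genes, stood at 0.198, 0.601, 14.3 and 23.6 CPM over the days, and without day 9 cell 3, which held 81.9% of the day 9 reads, its day 9 level was 5.81 CPM, under day 6. Grhl3, its relative, stood at 19.7, 22.2, 2.53 and 3.21 CPM. The day 3 level of Grhl3 was 4.23 CPM without day 3 cell 6, the day 0 level 9.35 CPM without day 0 cell 2 and the day 6 level 0.0516 CPM without day 6 cell 6. Klf5 stood at 61.2, 73.5, 49.2 and 167.1 CPM, with 81.4 CPM at day 9 without day 9 cell 3. Klf4, a factor of the same family, stood at 24.5, 10.8, 11.6 and 20.4 CPM, and its order rested on single cells: day 0 was 7.68 CPM without day 0 cell 4, day 9 was 7.82 CPM without day 9 cell 3, and all day 6 reads lay in cell 1.

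Of 6 mesenchymal transition factors, 4 were measured at day 6 and day 9 against day 0: Snai1, Zeb1, Twist2 and Zeb2. With every cell kept, all 4 of those were lower on both days relative to the median gene, beside 23.1% and 23.8% of all genes. In plain CPM, Snai1 was less than 2-fold lower on both days. So were Twist2 and Zeb2 at day 9, at 0.548 against 0.901 CPM and 0.493 against 0.879 CPM. Without 1 cell the count of lower genes ran from 2 to 4 on either day. Zeb1, a repressor of epithelial genes, stood at 6.59, 3.05, 0.761 and 2.16 CPM, and stayed lower than at day 0 whichever cell was left out, at -2.92 to -2.24 at day 6 and -3.14 to -1.60 at day 9. Its day 3 level was 0.635 CPM without day 3 cell 1. Snai1 stood at 7.12, 0.501, 4.66 and 4.41 CPM, with 97.5% of the day 0 reads in cell 5. Without that cell its day 0 level was 0.2035 CPM and it turned higher, at relative log2 ratios of 1.63 at day 6 and 1.35 at day 9, and without day 6 cell 5 its day 6 level was 0.502 CPM. Its day 6 ratio also fell within the limit without any 1 of day 6 cells 1, 2, 3, 4 and 6. Twist2 and Zeb2 stayed under 1 CPM on every day, and day 0 cells 2 and 6 held 97.6% and 90% of their day 0 reads. Without those cells neither had enough reads to be measured at day 6, and they stood at -0.10 and -0.38 at day 9. Feeder fibroblast markers had 7 of 8 measured lower at day 9 against day 0, beside 23.8% of all genes, and 5 to 7 without 1 cell. Their part in the mesenchymal factors was not tested.

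Cell type markers fixed for these cells were read beside the junction genes. Of 7 measured stem cell markers, 2 were higher and 0 lower at day 6 against day 0, beside 25.4% and 23.1% of all genes. At day 9 against day 6, 0 were higher and 4 lower, beside 21.2% and 20%, and 2 to 5 were lower without 1 cell. Pou5f1 stood at 136.6, 572.3, 576.3 and 271.5 CPM on days 0, 3, 6 and 9. The 4 keratins of simple epithelia, Krt7, Krt8, Krt18 and Krt19, summed to 0.132 to 96.7 CPM over the day 0 cells and to 394 to 3012 CPM over the day 9 cells, with 24.8 to 188.6 CPM on day 3, 11.1 to 232.2 CPM on day 6, and none of the 4 at 0 over a day's cells. Visceral and primitive endoderm markers were higher at day 9 than at day 6 in 12 of 12 measured, beside 21.2% of all genes. Without day 9 cell 4 they were higher in 7 of 12, and 8 to 12 of the 12 were detected per day 9 cell. Trophoblast markers were higher in 6 of 8, beside the same 21.2%, and in 5 or 6 without 1 cell. Krt7 is among these 6 and also among the keratins above. The trophoblast marker Eomes was lower, at a relative log2 ratio of -1.54, beside 20% of all genes. At day 9 none of either list was at 0 over the 5 cells, whereas at day 6 Afp and Foxa2 of the endoderm list and Gata3 and Cdx2 of the trophoblast list were at 0. The part of these markers in the day 9 levels of Dsp and the claudins was not tested.

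**Figure D4:**
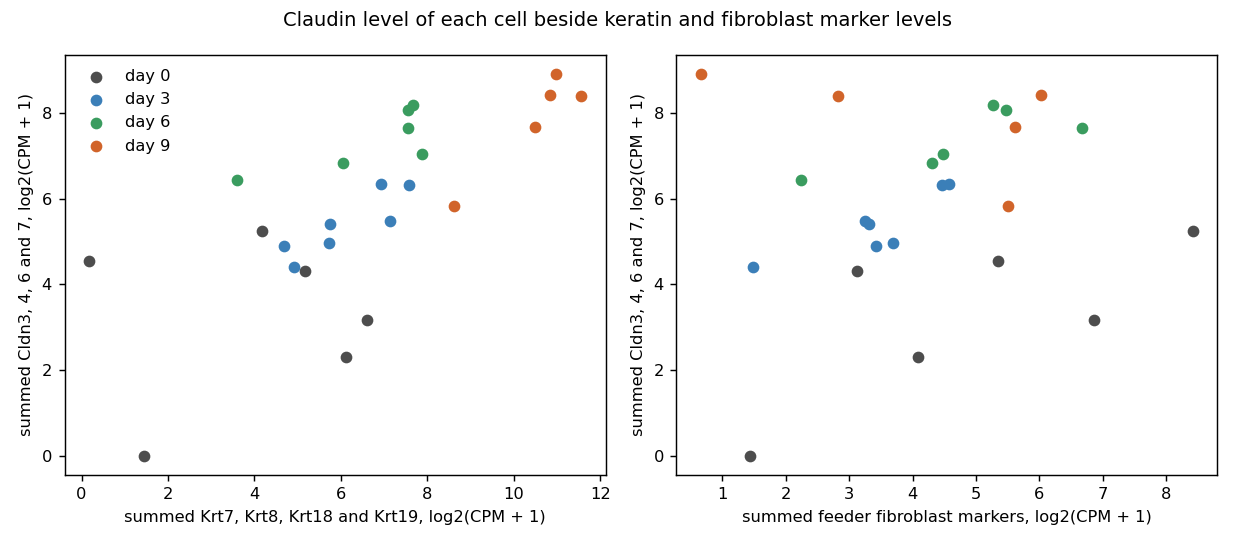
Summed level of the 4 claudins in each cell (vertical axis, log2(CPM + 1)) against the summed simple epithelium keratins (left) and the summed feeder fibroblast markers (right), both as log2(CPM + 1). Points are cells coloured by day. The day 9 cells lie at the right of the keratin panel, and day 0 cell 6 has the most feeder marker reads and the most claudin reads of its day.

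The genes varied together to different degrees across the 24 cells. On log2(CPM + 1), Pearson's r was 0.86 for Cldn6 with Cldn7, 0.80 for Cldn4 with Cldn7 and 0.78 for Cldn4 with Cldn6. It was 0.51 for Dsp with Tjp1 and 0.36 for Epcam with Rab25, and the lowest pair was Rab25 with Dsp at -0.28. The genes most like the mean of the 9 among 3257 candidates were Krt18 (r 0.90), Car4 (0.87), Gipc1 (0.85), Phax (0.85) and Babam1 (0.84). Krt18, a keratin of simple epithelia, stood at 7.60, 52.6, 100.5 and 921.5 CPM over the days, and Car4, a carbonic anhydrase, at 0, 3.80, 55.3 and 334.0 CPM. These values describe the 24 cells, which share their day, library and depth. The mean of the 9 genes had r of 0.29 with gene reads, -0.35 with the mitochondrially encoded share and -0.38 with the CT010467.1 share. With summed markers, r was 0.80 for the keratins, 0.75 for trophoblast, 0.66 for neuroectoderm, 0.57 for mesoderm and 0.43 for endoderm. It was -0.41 for stem cell markers and -0.0081 for feeder fibroblast markers.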

How the data were processed

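Cytoplasmic polyadenylated RNA of 24 single mESCs was counted per gene by the authors, 1 library each. The deposited values are raw counts, whole numbers, with 5 closing summary lines (21.3% to 60.5% of all reads) kept out of all totals here. Per the submitters' processing notes, Bowtie2 2.2.9, Bismark, Trim Galore 0.6.7 and the mm10 genome were used in the series, while for the RNA reads an aligner, a counter and a strand setting were not given in the sources used here. Counts were scaled to CPM of gene reads (3913595 to 16367029 per cell) and summed by day. The gene reads include those of CT010467.1, handled as ribosomal RNA, unless totals without it are named. Ratios used a pseudocount of 1 CPM and genes with at least 20 reads in at least 2 libraries, less the median gene, with 2-fold as the limit. No test was made between days, and cells were not used as replicates of a day. Dixon's limit was applied to the cells of a day only to point out single cells. The 61 pairs of cells within days were checked for repeated libraries, with a lowest chi-square per degree of freedom of 35.5. Recovery of known ratios was run on simulated counts with the same spread between cells for every gene. For the intervals, those counts held counting error only. The simulation thus says nothing of genes whose reads came mainly from 1 cell.

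The 9 genes, the gene lists and the alternatives were chosen with earlier results of these data known. All 9 genes are named, of each other list the 4 members with the most reads over the 24 cells, and the 5 genes with the highest correlation to the mean of the 9, among genes with a mean of at least 20 CPM and reads in at least 12 cells. The last leave out predicted names, pseudogenes, and ribosomal protein and mitochondrially encoded genes. Marker lists for mesoderm and neuroectoderm had at most 4 members measured in any comparison. Promoters and gene positions came from RefSeq tables on GRCm38.p6. Protein sequences were not used here.

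Alternatives were TMM factors, DESeq2 size factors, totals without CT010467.1 or without mitochondrially encoded genes, the mean or median of CPM over cells, a pseudocount of 0.1 or 10 CPM, a minimum of 1 or 200 reads, no subtraction of the median gene, leaving out each cell (for the other gene lists chosen after seeing the data), and the day 0 cells under 10% mitochondrially encoded reads. Size factors came from R 4.3.3 (DESeq2 1.42.0 and edgeR 4.0.16, with no model fitted), other values from Python 3.11.15 (scipy 1.17.1, pandas 2.3.3, numpy 2.4.6), and figures from matplotlib 3.10.9.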

Additional observations from a re-analysis of the deposited data

Results flagged for a closer look

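Dixon's 95% limit, for the gap between an end cell and the next, flags about 1 in 20 groups only where values are normally distributed. The CPM levels here are skewed, with many cells at 0, so the count of flags is not read as an excess. Of 36 groups of a gene and a day, 10 held a cell past the limit. At day 0 these were the highest cells for Tjp1 (68.1 CPM in cell 4, the next cell at 0.711), Cldn6 (15.0 CPM in cell 5, next 5.17), and Cldn7, Dsp and Rab25 in cell 6, at 16.7, 6.70 and 1.25 CPM against next cells of 1.59, 0.322 and 0.161 CPM. Cell 6 was the day 0 cell with the most feeder fibroblast marker reads, 340.8 CPM, and their part was not tested. At day 6 they were the highest cells for Cldn4 (41.9 CPM in cell 4, next 27.8), Dsp (1.28 CPM in cell 6, next 0.374) and Ocln (16.1 CPM in cell 6, next 5.25). At day 9, cell 1 was the lowest for Cldn3 (10.7 CPM, next 23.8) and the highest for Rab25 (3.07 CPM, next 0.141). In that cell CT010467.1 took 73.1% of gene reads, and without it in the totals Cldn3 stood at 39.9 CPM and Rab25 at 11.4 CPM.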

How the results depend on the processing

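No paired analysis was possible because no test was made between days and a cell's number pairs it with no other cell. Of 1057 values of single genes under an alternative or without 1 cell, 622 stayed within the counting interval of the value reported, 434 moved beyond it and 1 changed direction from a call: Cldn7 at day 3 against the 2 day 0 cells under 10% mitochondrially encoded reads, at -0.43. For the other values the cause was not tested.

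The count of genes at least 2-fold higher at day 3 was 6 and fell to 1 with a pseudocount of 10 CPM. Between day 3 and day 6 it was 2, and 5 with a minimum of 1 read or with no subtraction of the median gene. Between day 6 and day 9 it was 1, against 2 with totals without CT010467.1, a pseudocount of 0.1 CPM or a minimum of 200 reads, 3 with the median over cells or a minimum of 1 read, and 4 with no subtraction of the median gene. The count of lower genes at day 6 against day 0 was 1 (Dsp), and 0 with DESeq2 size factors, the median over cells, a pseudocount of 10 CPM, a minimum of 1 or 200 reads, or no subtraction. Between day 3 and day 6 it was 1, against 2 with the median over cells and 0 with a pseudocount of 10 CPM. At day 9 against day 0 it was 0, and 1 (Rab25) with the 2 low mitochondrial day 0 cells. Between day 6 and day 9 it was 1, and 2 with the mean over cells. The counts of higher genes at day 6 and day 9 against day 0 stayed within 1.5 times of 7 under these settings.

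Without 1 cell, the counts of higher genes against day 0 ran from 4 to 7 on day 3, from 6 to 7 on day 6 and from 6 to 8 on day 9, then 2 to 4 between day 3 and day 6 and 1 to 3 between day 6 and day 9. The counts of lower genes ran from 0 to 0, 0 to 1 and 0 to 0 against day 0, and from 1 to 2 in both later steps. The count lower at day 6 against day 0 was 0 without day 0 cell 6. The median log2 ratio of all genes at day 9 against day 0 was 0.71 on plain totals, 0.24 with TMM and 0.00 with DESeq2 size factors. Few reads limit Rab25, Ocln, Cldn3 and Dsp at day 0, with 12, 23, 38 and 61 reads over 6 cells.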

Other observations

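The following genes of the junction lists were named after their values were seen. Crb3, an apical membrane protein of the Crumbs polarity complex, stood at 0.242, 10.9, 34.6 and 37.4 CPM over days 0, 3, 6 and 9, with reads in 3 of 6, 6 of 7, 6 of 6 and 4 of 5 cells. Prss8, a membrane-anchored serine protease of epithelia, had 0 reads in the 6 day 0 cells, then 0.567, 15.1 and 44.5 CPM, with 91.2% of the day 3 reads in cell 2. The splicing regulator Esrp1, which favours epithelial isoforms, stood at 0.593, 2.57, 13.3 and 18.9 CPM. Cd44, a hyaluronan receptor, stood at 0.352, 0.334, 6.06 and 24.25 CPM, with 96.4% of the day 6 reads in cell 5 and 0.26 CPM at day 6 without it.

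Other junction genes had their highest summed level at day 0, carried by 1 cell. Pkp3, a plakophilin of desmosomes, stood at 22.2, 6.91, 0.483 and 2.49 CPM. Cell 3 held 75.6% of its day 0 reads, and without that cell day 0 stood at 6.66 CPM, under day 3 but above days 6 and 9. Its relative Pkp2 stood at 0.989, 26.6, 19.7 and 16.3 CPM, with 6.03 CPM at day 9 without cell 4. Mpdz, a multi-PDZ scaffold of tight junctions, stood at 14.4, 4.204, 0.146 and 3.29 CPM. Day 0 cell 3 held 98% of its day 0 reads, and without it the day 0 level was 0.351 CPM, while day 3 was 0.372 CPM without day 3 cell 2 and day 9 was 0.808 CPM without day 9 cell 4. The claudin Cldn5 had 296 reads at day 6, in 3 of 6 cells, and 0 reads on each other day.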
